A study of Mus musculus with 4 samples.

Results

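Imprinted genes are expressed mainly or only from the maternal or the paternal chromosome, and for some this depends on the tissue or the isoform. A list of 42 of them was located among 22208 protein-coding genes of the GENCODE annotation of mouse build mm9. By general knowledge of mouse imprinting 21 were classed as paternally expressed and 20 as maternally expressed, and Gnas, whose allele depends on the isoform, was kept apart. Whether each gene was expressed from that allele alone in these cells was not measured. At each gene the occupancy of RYBP, a protein of variant Polycomb PRC1 complexes, was read at the start sites of transcription and over the locus, which is the gene body with 5 kb upstream. A RYBP region lay at a start site of 31 of the 42 genes, at 16 of 21 paternally expressed and 14 of 20 maternally expressed genes.

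Genomic imprints are laid down in the germline as DNA methylation of CpG-rich stretches called differentially methylated regions, or DMRs. Most are methylated on the chromosome inherited from the mother and lie over the promoter of a paternally expressed gene, so that in a somatic cell the same promoter sequence is methylated on one chromosome and free of methylation on the other. Polycomb complexes bind CpG islands that lack DNA methylation, and PRC1 complexes that contain RYBP place ubiquitin on histone H2A there.

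The series holds 4 samples of wild-type FLK1+ PDGFRa- mesoderm, sorted from embryoid bodies (EBs) made from mouse embryonic stem cells of C57Bl/6 X Sv129 background, from 2 separate differentiations. There were 2 RYBP chromatin immunoprecipitation (ChIP-seq) samples and 2 inputs, which were not used here. The labels give day 3.75 of differentiation and the methods of the study a slightly later day, and the design text speaks of SCL ChIP where title and antibody (anti DEDAF, another name of RYBP) name RYBP. The deposited lists hold 14794 peaks in replicate 1 and 18154 in replicate 2, and a merged list of 22409 regions was identical to the union of both, of which 9901 regions were found in both replicates, 4587 in replicate 1 alone and 7921 in replicate 2 alone. Peak lists carry no read depth, no expression and no allele, so depth is unknown, the sorted cell type could not be checked against marker genes, and the parental chromosome that RYBP occupied cannot be told. With 2 replicates of 1 group, values are given for each replicate and no test was made.

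The sequences before the start sites give examples of the CpG content over which RYBP was read. A set of 6 is printed from mm9, 5′ to 3′ on the strand of the gene, with each CpG in capitals: 3 from start sites inside a RYBP region and 3 from start sites with none. The first is the whole 101 bases between the divergent start sites of Peg10 and Sgce, and the others are the 150 bases before a start site. Igf2 lies at chr7:149845395-149845544 on the minus strand, Grb10 at chr11:11937405-11937554 on the minus strand and the Peg10-Sgce interval at chr6:4697205-4697305, printed on the plus strand. Copg2 lies at chr6:30846795-30846944 on the minus strand, Nnat at chr2:157385664-157385813 on the plus strand and Peg3 at chr7:6683133-6683282 on the minus strand.
Peg10-Sgce, in a region: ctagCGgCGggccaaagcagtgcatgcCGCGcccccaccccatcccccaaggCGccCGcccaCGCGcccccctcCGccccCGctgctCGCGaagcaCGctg
Igf2, in a region: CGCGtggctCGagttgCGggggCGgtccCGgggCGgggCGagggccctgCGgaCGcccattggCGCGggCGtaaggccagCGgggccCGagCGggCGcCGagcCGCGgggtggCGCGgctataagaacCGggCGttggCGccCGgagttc
Grb10, in a region: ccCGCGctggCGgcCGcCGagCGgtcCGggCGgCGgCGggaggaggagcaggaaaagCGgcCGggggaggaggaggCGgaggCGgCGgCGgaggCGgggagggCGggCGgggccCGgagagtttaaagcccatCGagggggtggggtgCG
Copg2, no region: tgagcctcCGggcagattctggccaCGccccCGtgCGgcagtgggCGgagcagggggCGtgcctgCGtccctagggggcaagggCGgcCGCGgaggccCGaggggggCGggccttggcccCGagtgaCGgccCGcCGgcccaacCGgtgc
Nnat, no region: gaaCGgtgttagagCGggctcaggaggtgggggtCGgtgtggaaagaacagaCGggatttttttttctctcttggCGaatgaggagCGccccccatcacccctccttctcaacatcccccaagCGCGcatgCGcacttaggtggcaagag
Peg3, no region: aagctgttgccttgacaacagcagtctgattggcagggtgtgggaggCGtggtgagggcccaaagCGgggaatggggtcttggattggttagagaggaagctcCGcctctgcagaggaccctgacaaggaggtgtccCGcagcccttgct
The interval between Peg10 and Sgce holds 13 CpG, the Igf2 sequence 26 and the Grb10 sequence 22. Among the sequences without a region, Copg2 holds 17 CpG, Nnat 9 and Peg3 4, so that Copg2 and Nnat lack a region in spite of many CpG. The printed examples do not span the list. Before starts inside a region, the 150 bases of Slc22a3 hold 3 CpG and those of Peg12 hold 5. Before starts without a region, those of Zim1 hold 8 and those of Usp29 hold 0.

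A region was taken to lie at a start site if at least 1 bp of it fell within 2.5 kb of any annotated start. The 31 genes amount to 73.8% of the list (exact binomial 95% interval 58.0% to 86.1%, which covers counting error over genes only), against 54.0% of all protein-coding genes. A start-site region found in both replicates was present at 26 genes, or 61.9% (45.6% to 76.4%), against 37.2% of all genes. The other 5 genes (Slc22a18, Tssc4, Magel2, Impact and Slc38a4) had it in replicate 2 alone, and 0 in replicate 1 alone. Over the locus 33 genes had a region, or 78.6%, against 57.1% of all genes, and 26 had one found in both replicates, against 38.9% of all genes. The shares of the list lie above those of all genes. Long loci and genes with many starts hold more regions, so the counts were also set beside genes of the same class. Over 4 classes of locus length with about equal numbers of genes, from the shortest to the longest, 10 of 12, 4 of 5, 5 of 8 and 14 of 17 imprinted genes had a region over the locus, against 30.9%, 55.7%, 64.7% and 77.1% of all genes. With 1 annotated start, 13 of 16 imprinted genes had a start-site region, against 37.3% of all genes. With 2 to 3, 4 to 8 and 9 or more starts the counts were 3 of 8, 8 of 9 and 7 of 9, against 58.6%, 71.6% and 82.1%.

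CpG density was counted within 500 bp on each side of a start site, and a gene was called CpG-rich when its densest start reached 3 CpG per 100 bp. The median over the 42 genes was 6.39 CpG per 100 bp, against 4.70 over all genes. Of the 33 CpG-rich imprinted genes 29 had a start-site region, or 87.9% (71.8% to 96.6%), against 82.2% of all CpG-rich genes. A region found in both replicates was present at 26 of the 33, or 78.8% (61.1% to 91.0%), against 58.5% of all CpG-rich genes. Of the 9 CpG-poor imprinted genes 2 had a region (Slc22a18 and Impact, both in replicate 2 alone), against 10.4% of all CpG-poor genes, and 0 had one found in both replicates, against 4.16%. Within the CpG-rich class the list therefore stood close to all genes on the merged regions, and its share found in both replicates was higher. That difference was not tested, and genes such as Peg10 and Sgce, which share a region, are not independent. The class was not matched for density within: 18 of the 33 reached 7 CpG per 100 bp, against 6470 of 13501 genes.

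**Figure D1:**
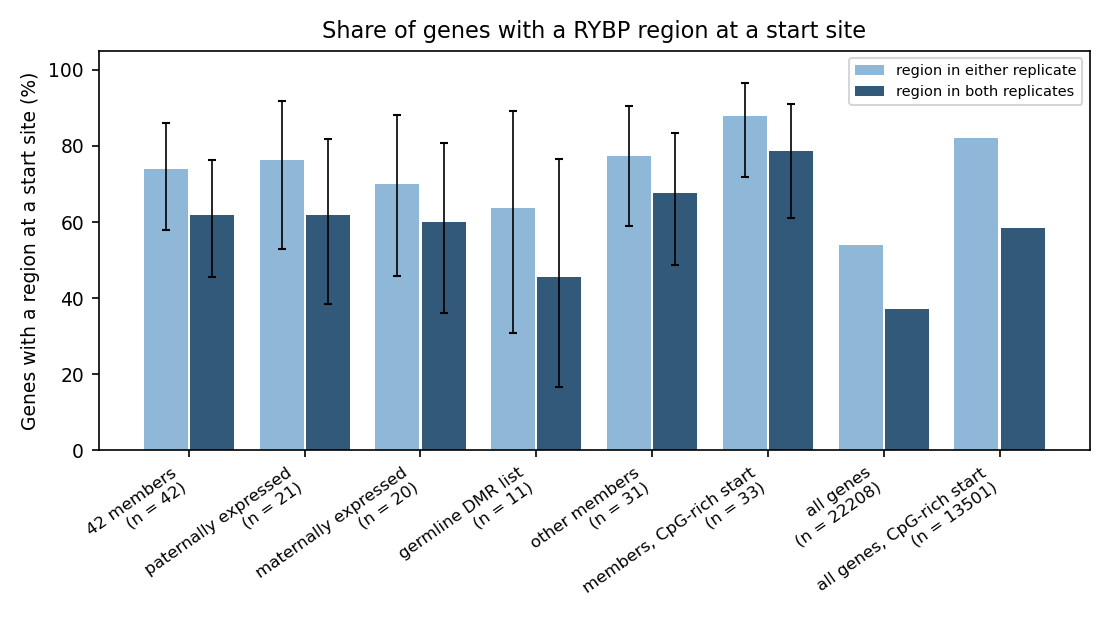
Share of genes with a RYBP region at a start site, in percent, for groups of imprinted genes and for all protein-coding genes. Light bars count regions of either replicate, dark bars regions found in both, and error bars are exact binomial 95% intervals over genes; all 42 members stand at 73.8% and 61.9%, all genes at 54.0% and 37.2%, and CpG-rich genes at 82.2% and 58.5%.

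Paternally and maternally expressed genes were next set side by side. A start-site region was present at 16 of 21 paternally expressed genes, or 76.2% (52.8% to 91.8%), and at 14 of 20 maternally expressed genes, or 70.0% (45.7% to 88.1%). Counting regions found in both replicates, the numbers were 13 of 21 and 12 of 20. The intervals overlap nearly in full, and the difference was not tested. Their CpG density was also alike, with medians of 6.19 and 6.04 per 100 bp. The caller of the authors gave each peak a fold enrichment, the ratio of the read pile-up to the local background, and the highest value at the start sites of a gene was taken for each replicate. Its median was 3.90 in replicate 1 and 4.03 in replicate 2 over paternally expressed genes with a peak there, and 3.56 and 4.39 over maternally expressed ones. The order of the groups was opposite in the replicates, so no difference in enrichment held between them.

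Over all 31 occupied imprinted genes the median of the highest fold enrichment was 3.74 in replicate 1 (26 genes) and 4.24 in replicate 2 (31 genes), against 3.54 and 3.91 over all occupied genes. Replicate 2 was higher in 25 of the 26 genes with a region in both, Zrsr1 being the exception, and in 78.1% of all such genes. Fold enrichment in replicate 1 and replicate 2 had a Spearman rho of 0.79 over the 26 genes, against 0.48 over 8481 genes. The highest CpG density and the highest fold enrichment of a gene had a rho of 0.57 in replicate 1 (26 genes) and 0.70 in replicate 2 (31 genes), against 0.25 and 0.29 over all occupied genes. Each was taken over all starts of the gene, so they can come from different starts, as at Igf2 and Grb10. These correlations are across genes of the same libraries, and genes are not independent replicates.

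**Figure D2:**
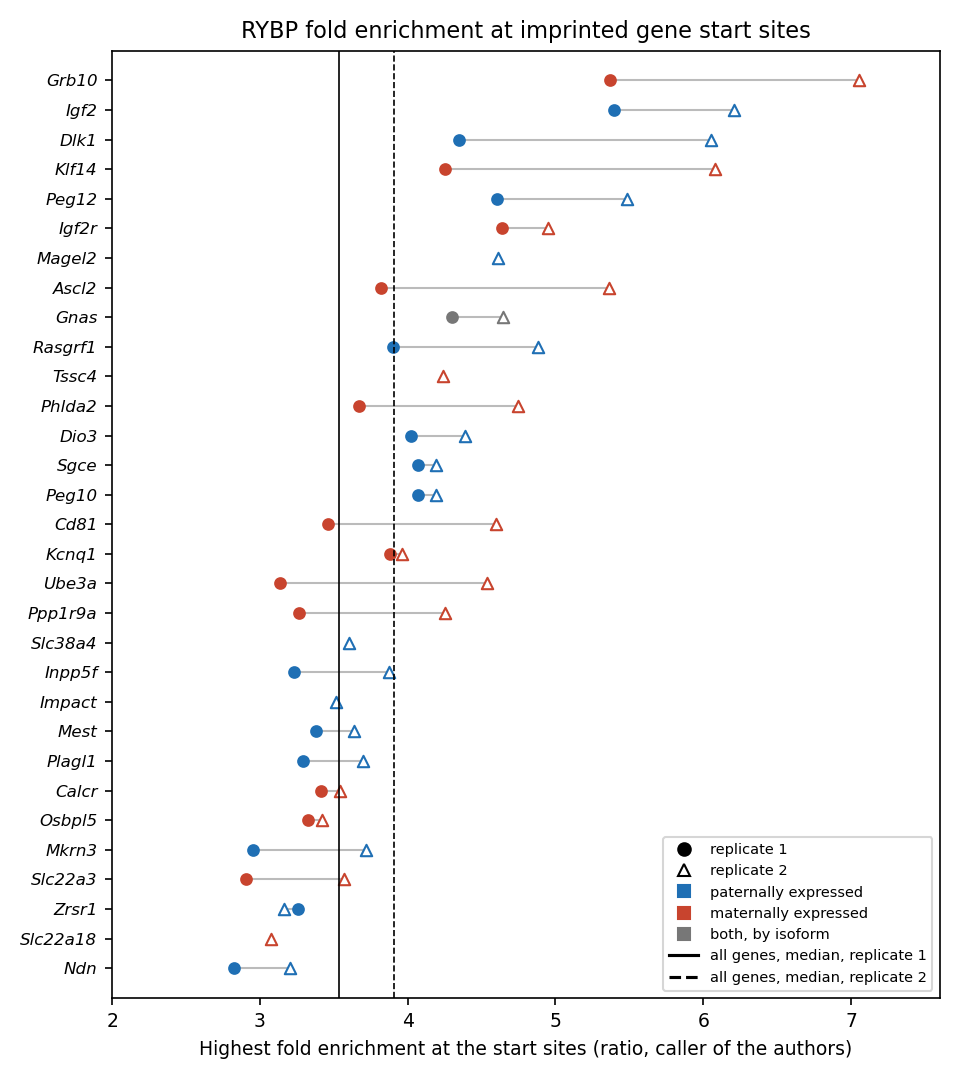
Highest fold enrichment at the start sites of each of the 31 imprinted genes with a region, as a ratio given by the caller; filled circles are replicate 1, open triangles replicate 2, colours the expressed allele, and vertical lines the medians over all occupied genes (3.54 and 3.91). Grb10 and Igf2 stand at the top in both replicates, Ndn has the lowest mean, and genes without a circle have a peak in replicate 2 alone.

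By the mean of both replicates, fold enrichment was highest at Grb10, Igf2, Dlk1, Klf14 and Peg12. Grb10, an adaptor that restrains insulin and growth factor receptor signalling, had its strongest region at chr11:11924094-11928054, 3961 bp over start sites inside the gene. It stood at 5.37 in replicate 1 and 7.06 in replicate 2 (−log10 q of 8.81 and 16.5), which places the gene at percentile 97.6 and 99.1 of all occupied genes. A separate region, chr11:11936096-11938433 with 2338 bp, had values of 4.61 and 4.91 (−log10 q of 6.37 and 6.38). It covered the start at position 11937404 and began 253 bp downstream of the most upstream start. Smaller regions lay near starts in replicate 2 alone (chr11:11928095-11929052, 3.21) and in replicate 1 alone (chr11:11939467-11940123, 3.19). Grb10 is maternally expressed in most tissues and paternally in neurons, from alternative start sites. Regions lay over its annotated start at position 11937404 and over some internal starts, but not over the most upstream one.

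Igf2, the fetal growth factor expressed from the paternal chromosome, carried 3 regions, all found in both replicates, that together covered 52.6% of its locus. The strongest, chr7:149848890-149852723 with 3834 bp over the most upstream start, had a fold enrichment of 5.39 and 6.21 (−log10 q of 8.45 and 10.7). The widest, chr7:149842016-149848061 with 6046 bp, held 8 of the 9 annotated starts and had values of 3.91 and 4.84 (−log10 q of 4.24 and 6.11). Another lay over exons further downstream, at chr7:149839890-149841089 with 1200 bp, and was weaker at 3.09 and 3.36 (−log10 q of 1.51 and 1.59). Its receptor Igf2r, which clears IGF2 and is maternally expressed, had a region of 1513 bp over the start (chr17:12961948-12963460) with 4.64 and 4.95 (−log10 q of 5.11 and 6.22).

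Dlk1, a paternally expressed transmembrane protein of the Notch ligand family, had a region of 2616 bp that reached 4.35 and 6.05 (chr12:110691046-110693661, −log10 q of 5.07 and 7.98). A weaker region upstream of it, chr12:110686914-110688728 with 1815 bp, had 3.21 in each replicate (−log10 q of 1.86 and 1.64). Klf14, a maternally expressed zinc finger factor without introns, had 2667 bp over its start with 4.25 and 6.08 (chr6:30907542-30910208, −log10 q of 5.58 and 10.7). Dio3, the enzyme that inactivates thyroid hormone, had the widest region of the list. It spanned 6755 bp (chr12:111514780-111521534), covered 64.4% of the locus and had values of 4.02 and 4.39 (−log10 q of 4.05 and 5.06). Rasgrf1, a paternally expressed exchange factor for Ras, had 5547 bp over its start with 3.90 and 4.88 (chr9:89802894-89808440, −log10 q of 3.51 and 5.58), and 561 bp upstream in replicate 1 alone at 2.94.

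Gnas, which encodes the stimulatory G protein alpha subunit and other proteins from alternative first exons, had 3 regions found in both replicates. They lay at chr2:174108992-174112115 over the most upstream start (3124 bp, 3.49 and 4.24, −log10 q of 2.69 and 3.75), at chr2:174120625-174126447 (5823 bp, 3.97 and 4.02, −log10 q of 4.15 and 4.09) and at chr2:174152304-174156285 (3982 bp, 4.30 and 4.65, −log10 q of 5.11 and 5.59). The middle region also holds the annotated upstream start of Nespas, the antisense RNA of the locus. All 3 regions contained annotated starts of Gnas. Igf2, Gnas, Dio3 and Rasgrf1 were the 4 genes of the list (9.52%) with a start-site region of 4 kb or more, against 2.71% of all genes. Among genes with a start-site region these were 4 of 31, against 601 of 11996. All 4 reached 7 CpG per 100 bp at a start, and no share was taken over genes of like density. Regions of 3982 bp (Gnas) and 3961 bp (Grb10) lay just under that width.

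**Figure D3:**
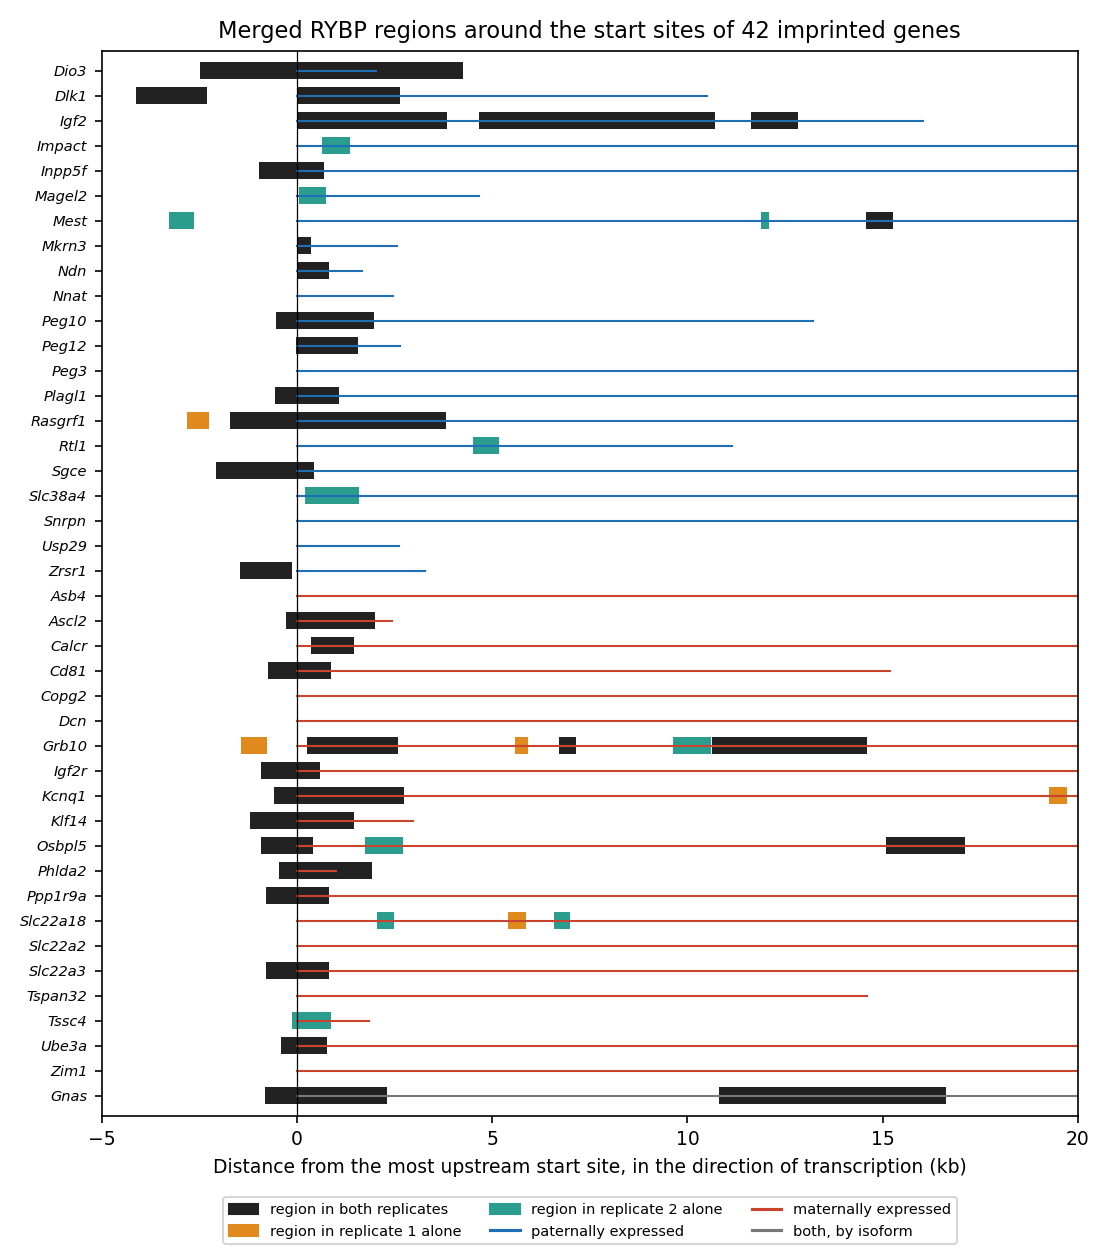
Merged RYBP regions of the 42 imprinted genes by distance from the most upstream start site in kb, in the direction of transcription; boxes are regions coloured by the replicates that hold them, lines are gene bodies coloured by expressed allele, and the map ends 20 kb downstream. The regions of Magel2, Ndn, Impact and Slc38a4 lie just downstream of that start, and 10 genes show none within the map.

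Maternally methylated germline DMRs are known at start sites of many paternally expressed genes, and 11 genes were listed for this: Peg3, Usp29, Peg10, Sgce, Mest, Snrpn, Plagl1, Nnat, Impact, Zrsr1 and Slc38a4. The assignment is general knowledge and was not measured in these cells. Internal starts of Grb10, Gnas and Inpp5f also lie in such DMRs and were not on that list, and the annotated start of Usp29, which has no region, lies far from the DMR that it shares with Peg3. A start-site region was present at 7 of the 11, or 63.6% (30.8% to 89.1%), and at 24 of the other 31 genes, or 77.4% (58.9% to 90.4%). With regions found in both replicates the counts were 5 of 11 (45.5%, 16.7% to 76.6%) and 21 of 31 (67.7%, 48.6% to 83.3%). The intervals overlap, but overlap is not a test of a difference, and none was made. Peg10 and Sgce enter these counts with the same region. Among CpG-rich genes, 6 of 8 on the list of 11 and 23 of 25 others had a region, against 82.2% of all CpG-rich genes. In both replicates the counts were 5 of 8 and 21 of 25, against 58.5% of all CpG-rich genes. With Grb10, Gnas and Inpp5f added the counts were 10 of 14 and, in both replicates, 8 of 14, against 21 and 18 of the other 28 genes, and without Usp29 they were 7 and 5 of 10. Their medians of CpG density were 5.29 per 100 bp over the 11 and 6.69 over the 31. Among the paternally expressed genes not on the list of 11, Inpp5f included, 9 of 10 had a region and 8 of 10 had it in both replicates.

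Among the 7 occupied genes of the list of 11, the highest values of fold enrichment were those of the region of 2506 bp that Peg10, a gene derived from a retrotransposon and needed in the placenta, shares with Sgce, which encodes epsilon-sarcoglycan. That region, chr6:4696777-4699282, stood at 4.07 in replicate 1 and 4.19 in replicate 2 (−log10 q of 3.74 and 3.27). Plagl1, a zinc finger factor that restrains cell growth, had 1633 bp at chr10:12809933-12811565 with 3.29 and 3.70 (−log10 q of 2.42 and 3.23). Zrsr1, a retrogene that lies in an intron of Commd1, had 1332 bp at chr11:22871749-22873080 with 3.26 and 3.17 (−log10 q of 1.90 and 1.5). Over the group the median was 3.38 in replicate 1 (5 genes) and 3.63 in replicate 2 (7 genes), against 3.82 and 4.57 over the other imprinted genes and 3.54 and 3.91 over all occupied genes. With Grb10, Gnas and Inpp5f added it was 3.72 (8 genes) and 3.79 (10 genes), against 3.74 and 4.54 over the remaining imprinted genes. The value of a gene is the highest over all its starts. In replicate 2 that of Inpp5f, 3.87, lay at its upstream start, while its internal start had 3.53. In replicate 1 the DMR genes lay below the median of all occupied genes with 11 genes and above it with 14. Peg10 and Sgce both enter with the same region, at 4.07. The 3.72 falls between this value and the 3.38 of Mest. The change of side therefore rests on counting that region for both genes.

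**Figure D4:**
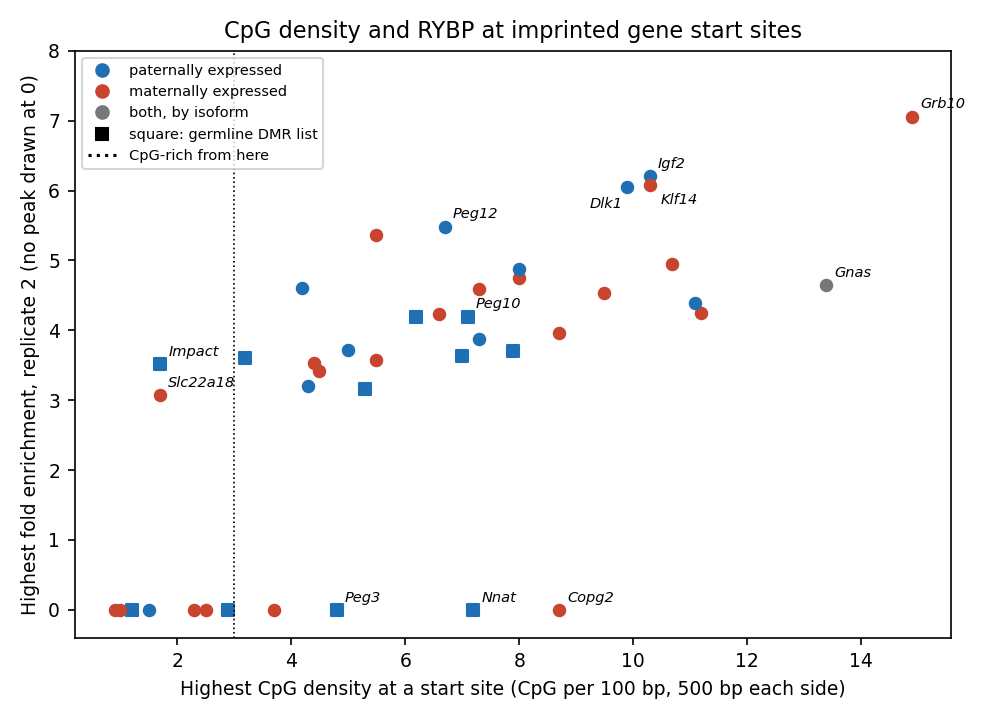
Highest fold enrichment in replicate 2 (ratio) against the highest CpG density at a start site (CpG per 100 bp) for the 42 imprinted genes; squares are the 11 genes of the germline DMR list, colours the expressed allele, genes without a region are drawn at 0, and the dotted line marks 3 CpG per 100 bp. Grb10 is highest on both axes, though its values there belong to different starts. The squares lie at or below 4.19, and Copg2, Nnat and Peg3 lie at 0 in spite of 8.69, 7.19 and 4.8 CpG per 100 bp.

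Where a region met a start site also differed among the genes. An annotated start lay inside a merged region at 24 of the 42 genes, or at 24 of the 31 occupied ones, against 43.0% of all genes and 79.6% of all occupied genes. The 7 occupied genes whose regions lay beside every annotated start were the paternally expressed Mest, Ndn, Magel2, Impact, Zrsr1 and Slc38a4 and the maternally expressed Slc22a18. The counts were 6 of 16 paternally expressed and 1 of 14 maternally expressed occupied genes, and 4 of the 7 occupied DMR genes. In Mest, which encodes a hydrolase-like protein of mesoderm, the region found in both replicates began 64 bp downstream of a start (chr6:30688127-30688812, 686 bp, 3.38 and 3.63, −log10 q of 2.72 and 3.50). A further region of 196 bp at Mest, chr6:30685435-30685630, was in replicate 2 alone (3.41, −log10 q of 1.84). The single regions of Impact, a translational regulator, and Slc38a4, an amino acid transporter, were in replicate 2 alone. They began 632 bp and 199 bp downstream of the start, and those of Ndn and Magel2, described next, 35 bp and 47 bp downstream. The values were 3.51 at Impact (726 bp, −log10 q of 2.29) and 3.61 at Slc38a4 (chr15:96884810-96886188, 1379 bp, −log10 q of 2.15). The position depends on the annotation: Zrsr1, whose region ends 135 bp before the annotated start, has a start matched from a RefSeq promoter that lies inside it.

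In the Prader-Willi and Angelman cluster of chromosome 7, the small paternally expressed genes without introns had regions while Snrpn did not. Peg12 had 1593 bp with 4.60 and 5.48 (chr7:69607835-69609427, −log10 q of 5.96 and 6.87), percentile 92.0 and 92.5 of all occupied genes. Ndn, which encodes the growth suppressor necdin, was at the low end with 2.83 and 3.20 (chr7:69493198-69493981, 784 bp, −log10 q of 1.36 and 1.63). Mkrn3, a ubiquitin ligase linked to the timing of puberty, had 358 bp with 2.96 and 3.72 (chr7:69564683-69565040, −log10 q of 1.37 and 2.26). Magel2, a partner of ubiquitin ligases, had 690 bp in replicate 2 alone at 4.61 (chr7:69521912-69522601, −log10 q of 4.35). The maternally expressed ubiquitin ligase gene Ube3a had 1189 bp with 3.14 and 4.54 (chr7:66483712-66484900, −log10 q of 1.71 and 4.07). Snrpn, which encodes a splicing protein and starts at the imprinting centre of this cluster, had no region at its annotated starts or at any of the 4 starts matched from RefSeq, and the nearest region lay 800.2 kb from its most upstream start.

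The Igf2-Kcnq1 cluster of chromosome 7 was the most densely occupied of the 7 clusters. Over 1.11 Mb from Igf2 to Osbpl5 the density was 31.6 merged regions per Mb (35 regions, 15 of them found in both replicates), while the autosomal density was 8.96 per Mb. It also has 17.2 protein-coding genes per Mb, against 8.61 over the autosomes. Ascl2, a transcription factor of the placenta, had 2283 bp with 3.82 and 5.36 (chr7:150153172-150155454, −log10 q of 4.47 and 8.30). Phlda2, which limits placental growth, had 2388 bp with 3.67 and 4.75 (chr7:150686526-150688913, −log10 q of 3.22 and 5.08). Cd81, a tetraspanin, had 1638 bp with 3.46 and 4.59 (chr7:150237887-150239524, −log10 q of 2.88 and 4.75). Tssc4 had 1000 bp in replicate 2 alone at 4.24 (chr7:150255030-150256029, −log10 q of 3.59). At Slc22a18, a transporter, the region near a start was 434 bp in replicate 2 alone at 3.07 (chr7:150661675-150662108, −log10 q of 1.20). Osbpl5, a lipid-binding protein, had 2 regions in both replicates, at chr7:150942487-150943822 (1336 bp, 3.33 and 3.42, −log10 q of 2.45 and 2.05) and chr7:150925770-150927797 (2028 bp, 3.20 and 3.37, −log10 q of 2.05 and 1.98). The remaining region of Osbpl5, chr7:150940170-150941160 with 991 bp, was in replicate 2 alone at 3.16 (−log10 q of 1.37). Tspan32 was the only one of the 9 listed genes of this cluster without a region at a start site.

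**Figure D5:**
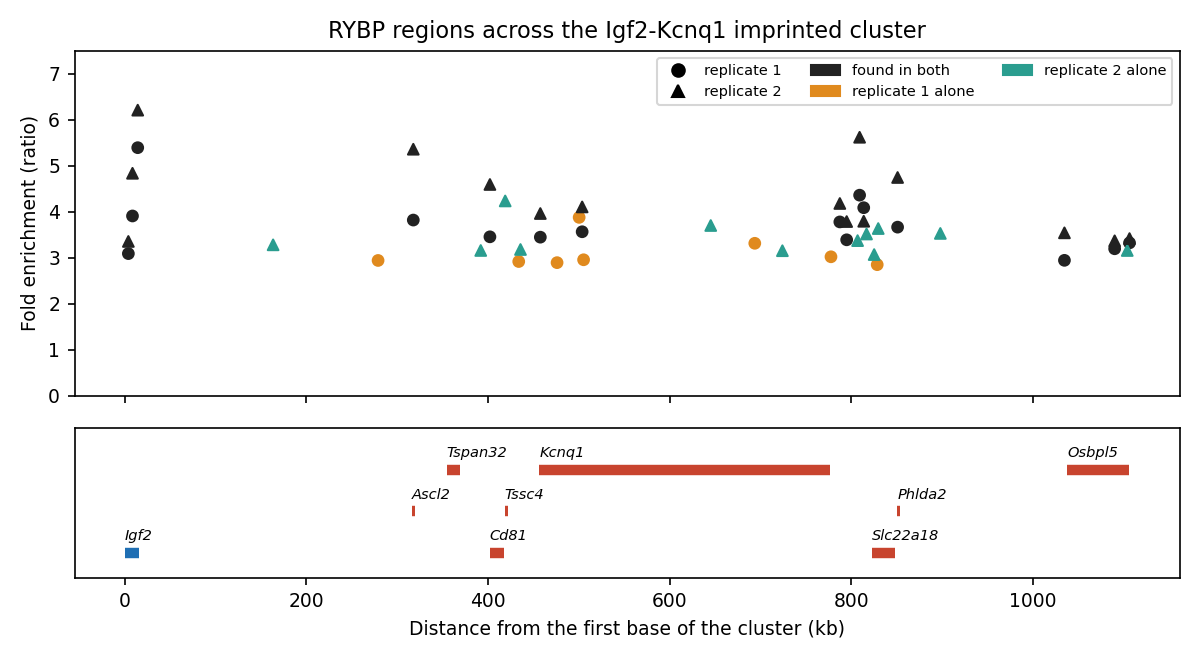
Fold enrichment (ratio) of the 35 merged regions across the Igf2-Kcnq1 cluster by distance from its first base in kb; circles are replicate 1, triangles replicate 2, colours show which replicates hold the region, and the lower panel gives the listed genes by expressed allele. The highest values lie at Igf2 (5.39 and 6.21), and a dense group lies between Kcnq1 and Phlda2, where Cdkn1c is located.

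Kcnq1, a potassium channel gene of this cluster, had 3323 bp over its start with 3.45 and 3.96 (chr7:150292565-150295887, −log10 q of 2.71 and 2.93), and 8 regions in all. Of the other 7, all in introns, 1 was found in both replicates, at chr7:150339950-150340637 (688 bp, 3.57 and 4.11). The highest replicate 1 value of the gene near a start, 3.88, came from 210 bp at chr7:150336875-150337084 that replicate 2 lacks (−log10 q of 2.94). The region at chr7:150481371-150482450, in replicate 2 alone at 3.70 (−log10 q of 2.19), ended 2 bp before position 150482452, where the RefSeq promoter of the antisense RNA Kcnq1ot1 places its start on the minus strand. The region thus covers the beginning of the transcript. The antisense RNA of Igf2r gave a similar layout: Airn starts at position 12934177 of chromosome 17 on the plus strand inside an intron of Igf2r, and a region found in both replicates began 82 bp downstream (chr17:12934259-12935531, 1273 bp, 3.41 and 3.38, −log10 q of 2.38 and 1.77). Both RNAs are paternally expressed and silence neighbouring genes on the same chromosome.

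These intronic regions held 7.07 CpG per 100 bp at Airn and 6.67 at Kcnq1ot1. They also held the letters TGCCGC, the core of the site that ZFP57, a factor that protects imprints, binds when it is methylated, 8 times at Airn and 3 times at Kcnq1ot1, counted on both strands. The 150 bases with most matches in each are printed below from the plus strand of mm9, with TGCCGC or its reverse complement GCGGCA in capitals, at chr17:12934502-12934651 for Igf2r and chr7:150481502-150481651 for Kcnq1.
Igf2r intron, inside Airn: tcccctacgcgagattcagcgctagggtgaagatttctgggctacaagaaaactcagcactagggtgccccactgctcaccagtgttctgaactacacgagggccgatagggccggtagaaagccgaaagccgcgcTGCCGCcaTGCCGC
Kcnq1 intron, inside Kcnq1ot1: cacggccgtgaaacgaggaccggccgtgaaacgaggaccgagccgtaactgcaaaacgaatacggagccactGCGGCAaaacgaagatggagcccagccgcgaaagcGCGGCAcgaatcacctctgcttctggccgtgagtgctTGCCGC
Both windows lie within the transcripts and do not hold their starts. The first window holds 2 matches and the second 3. Of the 44 regions at imprinted gene start sites, 23 held TGCCGC, or 52.3%, against 53.9% of all merged regions weighted to the same widths. Of the 7 regions of the 11 DMR genes 4 held it, or 57.1%, against 45.2% at matched widths. In these 7 regions the letters occurred 18 times, or 2.13 times per kb, against 0.72 over the other 37 regions and 0.62 over all merged regions, and the matches were 6 each at Mest and Plagl1 and 3 each at Impact and at Peg10 with Sgce. With the regions of Grb10, Gnas and Inpp5f added, 10 of 16 held it, at 1.64 times per kb. The middle region of Gnas held 13. The letters AANATGGC, the core of the YY1 site, occurred in 11 of the 44 regions, or 25.0%, against 18.7% at matched widths, and in 0 of the 7 regions of the DMR genes, against 15.9% at their widths. TGCCGC contains a CpG itself, and neither string contains the other. A match is a description of the letters and not a measured site.

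The remaining occupied genes were Calcr, Ppp1r9a, Slc22a3 and Inpp5f. Calcr, the calcitonin receptor, had 1119 bp with 3.42 and 3.54 (chr6:3713247-3714365, −log10 q of 2.04 and 1.93). Ppp1r9a, a neuronal actin-binding protein, had 1610 bp with 3.26 and 4.25 (chr6:4852217-4853826, −log10 q of 1.82 and 3.88). The transporter gene Slc22a3 had 1609 bp with 2.91 and 3.57 (chr17:12699756-12701364, −log10 q of 1.26 and 2.48). Inpp5f, an inositol phosphatase gene with a paternally expressed isoform from an internal start, had 1663 bp over the upstream start with 3.08 and 3.87 (chr7:135753873-135755535, −log10 q of 1.93 and 3.46). Its internal start had 691 bp with 3.23 and 3.53 (chr7:135831496-135832186, −log10 q of 1.68 and 2.11), so that both were occupied.

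No start-site region was found at 11 genes: Tspan32, Peg3, Usp29, Zim1, Asb4, Copg2, Snrpn, Nnat, Rtl1, Dcn and Slc22a2. Of these Copg2 and Rtl1 had a region elsewhere in the locus, both in replicate 2 alone, at chr6:30754044-30754761 (2.82) and chr12:110833368-110834038 (3.03), and the other 9 had none. The median CpG density of the 11 genes was 2.5 per 100 bp, against 7.09 over the 31 occupied genes. CpG-rich starts without a region were those of Copg2, a coat protein subunit (8.69 per 100 bp), Nnat, a small membrane protein of neurons (7.19), the zinc finger gene Peg3 (4.8) and its neighbour Zim1 (3.70), and Snrpn lay just under the threshold at 2.90. Of all genes with at least 7 CpG per 100 bp 93.5% had a region, and 16 of the 18 imprinted genes did, the exceptions being Copg2 and Nnat. The nearest region lay 60.7 kb from the upstream start of Copg2 and 5.99 kb from that of Nnat.

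The Peg3 cluster was empty. Over 0.288 Mb from Zim1 to Usp29 it held 0 merged regions, and the nearest region lay 346.6 kb from the upstream start of Peg3. The annotated start of Usp29 lies 230.6 kb from the start that RefSeq gives next to Peg3 at position 6683294, and neither had a region. Apart from Igf2-Kcnq1, density over the remaining clusters rested on few regions each. It was 17.0 merged regions per Mb at Mest (4 regions), 12.1 at Dlk1-Dio3 (10), 8.58 at Igf2r (3), 4.58 at Peg10-Sgce (8) and 1.60 at Snrpn-Ube3a (5). Protein-coding genes numbered 17.0 per Mb at Mest, 3.62 at Dlk1-Dio3, 11.4 at Igf2r, 8.01 at Peg10-Sgce and 3.20 at Snrpn-Ube3a. At the empty Peg3 cluster they numbered 10.4 per Mb, against 8.61 over the autosomes. Counting regions found in both replicates, Dlk1-Dio3 stood at 3.62 per Mb, below the 3.96 of the autosomes, while Igf2r stayed at 8.58 and lay above them. Each of these rests on 3 regions, too few to place the cluster firmly on either side.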

How the data were processed

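RYBP ChIP-seq peaks of 2 replicates were used; the 2 inputs were not analysed here. According to the methods and the labels, the authors aligned paired-end reads to mm9 with Bowtie 1.1.2b, removed duplicates and called broad peaks per replicate with MACS2 2.0.10. The deposited lists give each peak a fold enrichment (a linear ratio of pile-up to local background), −log10 of its p-value and q-value, and a score of 10 times the −log10 q. Broad calling joins neighbouring peaks, and fold enrichment depends on the input used as background. The merged list deposited by the authors holds positions only; the union of both lists, with replicate 2 starts moved by 1 bp, equals it.

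Regions were set against mm9 GENCODE genes of the autosomes and the X chromosome with Python 3.11.15, numpy 2.4.6, pandas 2.3.3, scipy 1.17.1 and pysam 0.24.0. A region was found in a replicate when a peak overlapped it by 1 bp. CpG density and letters were read from mm9. RefSeq promoter sequences (GRCm38.p6 table) were matched exactly to mm9, and all 54 starts of 35 members matched. Interval code was tested on simulated data. Exact binomial 95% intervals cover counting error over genes only, which are not independent replicates; read depth is unknown. Members, lists of alleles, DMRs and clusters and alternatives were chosen with earlier results of these data known. All members are named, those with a start-site region with position, width, fold enrichment and −log10 q (Impact by its distance from the start), and of further lists those with a start-site region in both replicates with values.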

Additional observations from a re-analysis of the deposited data

How the results depend on the processing

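The number of imprinted genes with a start-site region was 31, and 28 to 32 with windows of 1 kb or 5 kb, the most upstream start alone, region midpoints, peaks with −log10 q no lower than 2 or with a fold enrichment no lower than 3. The share of all genes ran from 45.2% to 56.0% under these settings, region midpoints included. The number with a region in both replicates was 26, and 18 at −log10 q of at least 2. For this stricter count in both replicates the share of all genes was not taken. Leaving out a replicate gave 26 to 31 genes, 13 to 16 paternally expressed, 12 to 14 maternally expressed, 5 to 7 DMR genes and 27 to 33 loci. With replicate 1 alone 26 imprinted genes had a start-site region, against 41.0% of all genes. With replicate 2 alone 31 did, against 51.0%. Of 71 alternatives 61 left a count within 1.5 times the reported one, or a median or density within the spread of the replicates. The others were the following. With 250 bp on each side, the median CpG density was 7.98 with a region and 2.59 without. With regions found in both replicates, density per Mb was 13.6 at Igf2-Kcnq1, 3.43 at Peg10-Sgce, 8.49 at Mest, 1.28 at Snrpn-Ube3a and 3.62 at Dlk1-Dio3, against 3.96 over the autosomes. Dlk1-Dio3 thereby turned from above to below the autosomes and Igf2r, at 8.58 in both counts, from below to above, while Peg10-Sgce and Snrpn-Ube3a lay below in both. At Dlk1-Dio3 and Igf2r the count in both replicates was 3 regions each. With 50 kb added on each side, it was 34.0 at Igf2-Kcnq1, 11.1 at Igf2r and 4.33 at Peg10-Sgce. The RefSeq starts (26 of 35 genes with a region, 22 in both) were added after the data were seen, without a share of all genes. Also added then were the allele counts in both replicates, the DMR count at −log10 q of at least 2 (6) and the changed DMR lists (10 of 14 and 7 of 10).

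Lists without reads allow no correction for depth and no test of an allele. No paired analysis was possible because the inputs, whose replicate numbers match those of the ChIP samples, were not used here.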

Other observations

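Further imprinted genes and factors, listed with earlier results known and not among the 42, were read the same way. Over all protein-coding genes the shares were 54.0% for a start-site region and 37.2% for one found in both replicates, and over CpG-rich genes 82.2% and 58.5%. Of 11 maternally expressed coding genes, 9 of them CpG-rich, 10 had a start-site region and 7 had it in both replicates: Atp10a (4.67 in replicate 1 and 5.77 in replicate 2), the cell cycle inhibitor Cdkn1c (4.36 and 5.62), Kcnk9 (3.88 and 4.50), Pon2 (3.41 and 4.95), Cobl (3.48 and 3.98), H13 (2.74 and 4.74) and Commd1 (3.26 and 3.17, the region it shares with Zrsr1). Th had one in replicate 1 alone, Trappc9 and Tfpi2 had one in replicate 2 alone, and Pon3 had none. Of 4 annotated paternally expressed coding genes, 3 of them CpG-rich, Zdbf2 had a region in both (4.21 and 5.46), Nap1l5 in replicate 2 alone (3.39), and Ins2 and Mcts2 had none. The annotation does not list Snurf, Kcnq1ot1 or Peg13.

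Of the noncoding RNAs, the paternally expressed Airn (3.41 and 3.38) and Nespas (3.97 and 4.24) had a start-site region in both replicates. The 2 values of Nespas come from different regions, both of them also regions of Gnas. The paternally expressed Kcnq1ot1, read at its RefSeq start, had a region in replicate 2 alone (3.70). Among 4 maternally expressed RNAs, 2 of them CpG-rich, 0 had a start-site region found in both replicates. H19 had peaks of each replicate at different positions (3.40 and 3.53). Meg3 had 1 in replicate 2 alone (2.95), and Rian and Mirg had none at a start site. Of 7 genes for factors that keep or read imprints, 5 of them CpG-rich, Zfp57 (5.40 and 4.65), Trim28 (3.48 and 4.36) and Ctcf (2.87 and 3.47) had a region in both replicates and Smchd1 in replicate 2 alone (3.07), while Zfp445, Ctcfl and Dppa3 had none at a start site.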
